A study of Rattus norvegicus with 24 samples.

Results

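The lungs of 6 rats that inhaled hexanal at 1500 ppm were compared with those of 6 rats that inhaled it at 1000 ppm, miRNA by miRNA and within microarray slides. The 12 arrays were taken by the dose in their labels from the 24 arrays of the series, which also hold 6 control rats that breathed filtered clean air and 6 rats at 600 ppm. All rats were of the Fischer-344 strain, 7 to 8 weeks old, and each dose group had 3 males and 3 females, with 1 array of lung RNA per rat. Hexanal is a volatile aldehyde of indoor air, and the labels give a daily exposure of 4 h, 5 days a week, over 5 weeks, whereas the methods of the study state a shorter period. The labels name the doses in ppm, while their protocol text attaches mg/m3 to the same numbers, so ppm is used here as the name of a dose. No rat of either group was unexposed, and the comparison asks what separated the higher of 2 exposures from the lower.

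The arrays lay on 3 slides, and the slide fixed which rats could be compared. Slide 1 held 2 of the males at 1000 ppm (animals 11 and 12) and no array at 1500 ppm. Slide 2 held male 13, at 1000 ppm, with the 3 males (16, 17 and 18) of the 1500 ppm group. Slide 3 held the 3 females at 1000 ppm (31, 32 and 33) and the 3 females at 1500 ppm (36, 37 and 38). With slide as a block, slide 3 carried 66.7% of the weight of a difference and slide 2 carried 33.3%, while slide 1 informed only the spread. Slide 3 held all 6 females, so its offset from slides 1 and 2, both of males, cannot be told apart from sex. The place of an array on its slide also followed the dose: on slide 3, females 31 and 32 had position number 1 and the other 4 had position number 2. On slide 2 these males all had position number 1. A further place number there was 4 for male 13 and 3, 2 and 1 for males 16, 17 and 18.

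A miRNA is a short RNA that guides a silencing complex to messenger RNAs, mainly by pairing through its seed, the bases 2 to 8 from the 5′ end. Whole lung mixes epithelium, endothelium, smooth muscle, fibroblasts and blood cells, and many miRNAs are much more abundant in some of these than in others. The miR-34b, miR-34c and miR-449 miRNAs belong to multiciliated airway cells, the miR-200 family to epithelium, miR-126 to endothelium, miR-143 and miR-145 to smooth muscle, miR-451 and miR-144 to red blood cells, and miR-1 and miR-133 to striated muscle. In such bulk RNA, fewer cells of a type and less RNA per cell cannot be told apart. The labelled tissue fitted these markers in part: miR-126a-3p had the second-highest level of the miRNAs tested and the 5 miR-200 family miRNAs were above background on all 12 arrays. The miRNAs of other organs were mixed. Of 8 listed for brain, liver and pancreas, miR-124-3p and miR-9a-5p of brain did not reach the detection filter. However, 4 of the 8 did, among them miR-128-3p, miR-7a-5p and miR-375-3p, which were above background on all 12 arrays. The striated muscle miRNAs miR-1-3p and miR-133b-3p were present in some lungs and are described with their values.

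The ciliated cell miRNAs are shown because 6 of the 20 smallest p-values of the comparison fell on them. Mature sequences are from RefSeq (GRCr8), which held 249 of the 283 miRNAs tested by name, and the seed is in capitals. The miR-34 and miR-449 5p miRNAs share the seed GGCAGUG, found in 5 of the miRNAs tested, and the 3p pair shares AUCACUA.
rno-miR-34b-5p: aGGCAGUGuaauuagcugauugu
rno-miR-34c-5p: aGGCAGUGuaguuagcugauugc
rno-miR-449a-5p: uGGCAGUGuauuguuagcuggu
rno-miR-449c-5p: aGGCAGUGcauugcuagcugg
rno-miR-34a-5p: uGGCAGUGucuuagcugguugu
rno-miR-34b-3p: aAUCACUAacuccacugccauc
rno-miR-34c-3p: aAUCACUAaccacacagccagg

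The miRNAs with the smallest p-values that were higher at 1500 ppm are shown because, unlike the ciliated cell miRNAs, no 2 of those shown share a seed. In the top 20, the 7 higher miRNAs with a RefSeq sequence had a median of 59.1% G and C, against 46.6% for the 12 lower miRNAs. The sequence of miR-347 was not in the table used.
rno-miR-3573-3p: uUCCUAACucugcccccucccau
rno-miR-667-3p: uGACACCUgccacccagcccaa
rno-miR-125a-3p: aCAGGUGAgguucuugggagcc
rno-miR-188-5p: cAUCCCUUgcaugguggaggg
rno-miR-210-3p: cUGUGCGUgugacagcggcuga

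No miRNA passed the test between 1500 and 1000 ppm. Levels are log2 of the scaled probe intensity, and a difference is 1500 minus 1000 ppm on that log2 scale. With slide as a block (limma, Benjamini-Hochberg), 0 of 283 miRNAs were past an adjusted p of 0.05 (0%), and the smallest adjusted p was 0.791. At an unadjusted p under 0.05 there were 13 miRNAs (4.59% of those tested), 8 higher (2.83%) and 5 lower (1.77%) at 1500 ppm. The split depended on the signal used, with 22 higher and 3 lower after a normexp background correction, and 1 higher and 42 lower with the deposited series table. The differences ran from -1.19 to 0.81 with a median of -0.0066, and 6 miRNAs differed by more than 1.5-fold. The median standard error was 0.077, and for 242 of the 283 miRNAs the 95% interval of the difference lay within 1.5-fold in either direction. For the others the interval took in differences of more than 1.5-fold. These intervals hold for the floor used, and 219 of the 283 miRNAs were above background on all 12 arrays. For miR-145-3p, at the floor on slides 2 and 3, a floor at 0.25 of the main floor gave -0.57 (95% interval -0.75 to -0.40).

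The ciliated cell miRNAs had lower values at 1500 ppm. All 7 members tested had a negative difference (6 of 7 after a normexp background correction), with a list median of -0.35 against -0.0066 over all miRNAs. Of the 7, 4 had an unadjusted p under 0.05, against 4.59% of all miRNAs tested, and none passed the adjusted test. Those 4 were both arms of miR-34b and of miR-34c. They come from the same transcript and were measured in the same rats, so they are not independent results. The list was also chosen with earlier results of these data known. Over all 283 miRNAs 150 were lower. The miR-34b, miR-34c and miR-449a miRNAs kept a negative sign in all 32 alternative settings, and miR-449c-5p in 30 of 31. These counts include settings that could not change a difference. Among them were the eBayes options, the fit of only the slides with both doses, and leaving out a male from the slide without 1500 ppm arrays. Others, such as males alone with slide, took the difference from only the males or only the females. The counts are therefore not counts of independent checks. Lower values were found on both slides for 6 of the 7, miR-34a-5p being the exception.

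The miR-34b-3p levels did not overlap between doses on either slide. On slide 3 they were 6.94, 6.77 and 7.01 at 1000 ppm and 6.62, 6.74 and 6.41 at 1500 ppm. On slide 2 male 13 at 1000 ppm had 6.38 and the males at 1500 ppm had 5.90, 6.34 and 5.78. The lowest 1000 ppm array thus lay above the highest 1500 ppm array of its slide, by a small margin on each. The difference was -0.34 ± 0.12 (SE, limma, adjusted p 0.791).

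The 3p arm miR-34c-3p, from the same transcript as miR-34b, gave -0.34 ± 0.13. Its levels on slide 3 were 5.75, 5.61 and 5.73 at 1000 ppm and 5.39, 5.64 and 5.00 at 1500 ppm, so that female 37 overlapped the lower dose. On slide 2 male 13 had 5.24, above 4.85, 5.16 and 4.75 in the 1500 ppm males.

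The 5p arms were the brightest of the group. For miR-34b-5p the females had 10.88, 10.71 and 11.07 at 1000 ppm and 10.68, 10.85 and 10.28 at 1500 ppm. Male 13 had 10.73, against 10.18, 10.60 and 9.86 in the males at 1500 ppm. The groups overlapped on slide 3 through female 37 and were apart on slide 2, and the difference was -0.36 ± 0.16. The same order of arrays was seen for miR-34c-5p, with a difference of -0.35 ± 0.16.

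The miR-449 miRNAs, which lie in an intron of a gene of multiciliated cells, gave similar differences with another array standing out. For miR-449a-5p females 36 and 38 (7.80 and 7.75 at 1500 ppm) lay within the range of 7.70 to 7.97 at 1000 ppm, whereas female 37 had 6.85. Without female 37 the difference of -0.37 ± 0.18 became -0.17. On slide 2 male 13 had 7.06 and the males at 1500 ppm 6.67, 6.71 and 6.81.

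The dimmest of these was miR-449c-5p, detected above background in 6 of 6 rats at 1000 ppm and in 1 of 6 at 1500 ppm. Males 11 and 12 of the lower dose lay on slide 1, which held no 1500 ppm array and had the highest signal. Detection was also split in other rats. Control males 1 and 3, control female 22 and the 600 ppm males were above background. Control male 2, control females 21 and 23 and the 600 ppm females were not. Detection by dose was not tested. Its difference was -0.38 ± 0.17, and female 36 had 4.42 while the other 1500 ppm arrays lay between 3.50 and 3.67, at or near the floor of the scale.

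The p53 target miR-34a-5p carries the same seed and did not share the pattern. Its difference was -0.095 ± 0.13, at -0.23 on slide 3 and 0.17 on slide 2.

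The control and 600 ppm arrays of the same slides show how far these miRNAs ranged in other rats. On slide 2 the 3 control females had miR-34b-5p levels of 10.17, 10.69 and 9.79 and miR-34b-3p levels of 6.04, 6.50 and 5.57. The 1500 ppm males of that slide lay inside both ranges, and the 1000 ppm male was above the first. On slide 3 the 2 females at 600 ppm had miR-34b-3p levels of 6.79 and 6.55, between the lowest 1500 ppm female and the highest 1000 ppm female. A range over the 3 control females is not the same measure as a difference between dose means. The 1000 and 1500 ppm rats of slide 2 were males, and the part of sex was not tested.

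**Figure D1:**
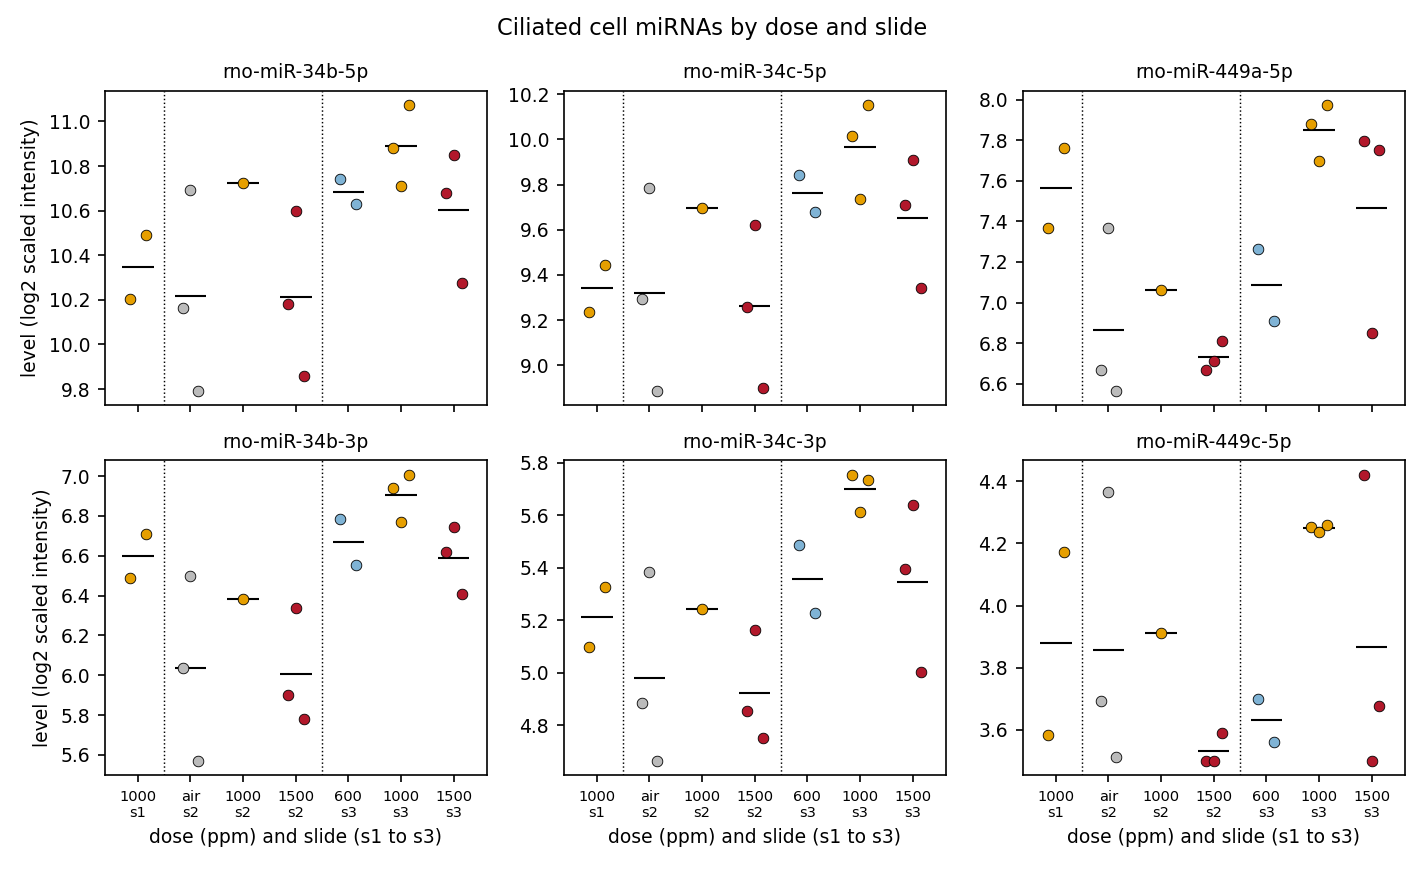
Level (log2 scaled intensity) of 6 ciliated cell miRNAs on each array, by dose in ppm and slide (s1 to s3); points are rats, horizontal lines are means, and grey (air) and blue (600 ppm) points are other rats on the same slides. For miR-34b-3p the 1500 ppm points (5.78 to 6.74) lie below the 1000 ppm points of the same slide, while the air points on slide 2 span 5.57 to 6.50. The air and 600 ppm males on slide 1 and the 600 ppm female on slide 2 are not drawn.

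The miRNAs that were higher at 1500 ppm were of low to middle level and differed in which rats carried them. Of the 20 smallest p-values, 8 belonged to higher miRNAs, and 4 of these 8 had doses that did not overlap on either slide. Over all 283 miRNAs, 4 (1.41%) were apart and higher on both slides (miR-3573-3p, miR-667-3p, miR-188-5p and miR-181a-1-3p) and 2 (0.707%) were apart and lower on both (miR-34b-3p and miR-222-3p).

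The smallest p belonged to miR-3573-3p, a miRNA annotated in rat with no role given here. Its levels were 5.86, 5.93 and 5.64 in the 1000 ppm females and 6.94, 6.15 and 5.97 in the 1500 ppm females. On slide 2 they were 5.01 in male 13 and 5.79, 5.43 and 5.40 in the males at 1500 ppm. The difference was 0.54 ± 0.18 (limma, adjusted p 0.791). Female 36 had the highest level of all 12 arrays, and without that array the difference was 0.36.

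The passenger arm of the miR-125a hairpin, miR-125a-3p, had the largest positive difference, 0.81 ± 0.29. Its slide 3 levels were 6.99, 7.17 and 6.57 at 1000 ppm and 8.55, 7.51 and 6.93 at 1500 ppm, which overlapped. On slide 2 they were 5.46 against 6.84, 6.17 and 6.17. Without female 36 the difference was 0.55.
The other arm of that hairpin, miR-125a-5p, was far brighter and gave 0.034 ± 0.057.

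On slide 3 the levels of miR-347 were, like those of miR-125a-3p, highest in females 36 and 37 and lowest in female 33, with the others in another order. Its difference was 0.51 ± 0.18, with 7.70, 7.61 and 7.42 against 8.63, 7.84 and 7.63 on slide 3 and 6.81 against 7.68, 7.31 and 7.24 on slide 2. Female 36 was again the highest of the 12 arrays, and without it the difference was 0.33. Female 36 was also the highest of slide 3 for miR-6216 and miR-3473, whose differences were 0.42 ± 0.21 and 0.45 ± 0.27, or 0.22 and 0.20 without that array.

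Control females on slide 2 had high values for these miRNAs. The 3 control females had miR-125a-3p levels of 7.23, 7.68 and 7.73, all above the highest exposed male of that slide, and miR-3573-3p levels of 5.79, 6.37 and 6.08. The sexes differed between those arrays, and the part of sex was not tested.

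For miR-188-5p the doses were apart on both slides by small margins. The females had 5.23, 5.01 and 4.92 at 1000 ppm and 5.60, 5.46 and 5.24 at 1500 ppm, and male 13 had 4.96 against 5.18, 5.69 and 5.07. The difference was 0.37 ± 0.13. Males 11 and 12 on slide 1, at 1000 ppm, had 5.45 and 5.15, inside the range of the 1500 ppm arrays.

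The difference of miR-667-3p rested on slide 3. It was 0.58 ± 0.19 over both slides, 0.85 on slide 3 and 0.026 on slide 2, where the 4 arrays lay between 3.50 and 3.54, near the floor. The 1500 ppm females had 4.51, 3.98 and 4.91 against 3.65, 3.64 and 3.55. It was well above background on 7 of the 12 arrays, 3 of 6 at 1000 ppm and 4 of 6 at 1500 ppm.

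The hypoxia-induced miR-210-3p was higher at 1500 ppm by 0.21 ± 0.082. The slide 2 males had 6.54 at 1000 ppm and 6.79, 7.00 and 6.89 at 1500 ppm, without overlap. The slide 3 females overlapped, with 6.39, 6.61 and 6.65 against 6.57, 6.84 and 6.67. The control females of slide 2 had 6.63, 6.40 and 6.54.

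**Figure D2:**
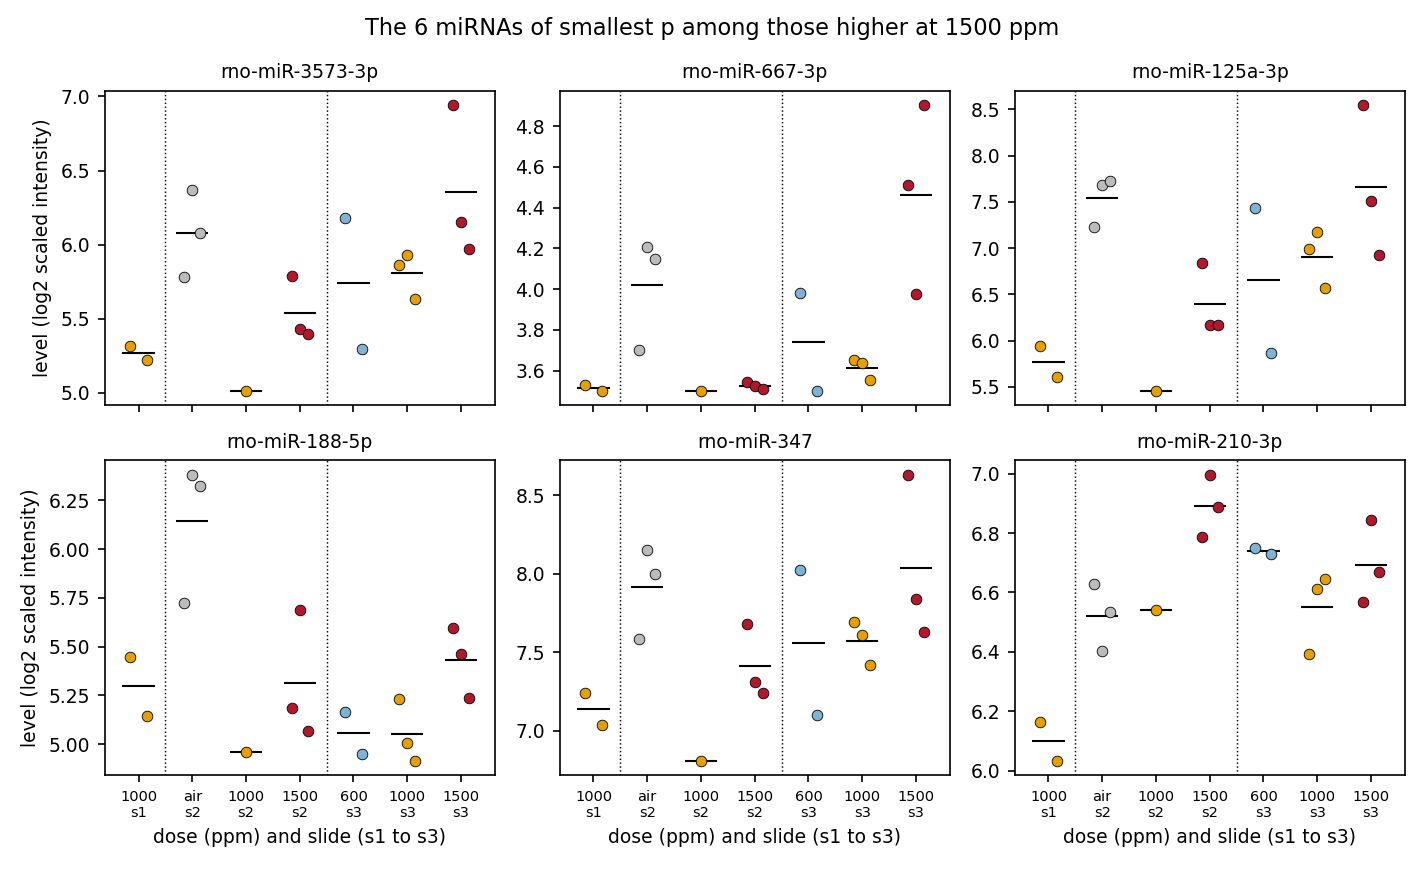
Level (log2 scaled intensity) on each array, by dose in ppm and slide, of the 6 miRNAs with the smallest p among those higher at 1500 ppm; points are rats and horizontal lines are means. The highest 1500 ppm point on slide 3 is female 36 for miR-3573-3p (6.94), miR-125a-3p (8.55) and miR-347 (8.63), and the air points for miR-125a-3p on slide 2 (7.23 to 7.73) lie above the 1500 ppm males. The air and 600 ppm males on slide 1 and the 600 ppm female on slide 2 are not drawn.

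The other miRNAs of the top 20 given here had differences of 0.30 or less in either direction. The smooth muscle miRNA miR-143-3p, among the brightest on the array, gave -0.13 ± 0.059, with 12.70 to 12.90 at 1000 ppm and 12.57 to 12.76 at 1500 ppm over all slides. The miR-222-3p levels were 7.72, 7.69 and 7.72 in the 1000 ppm females and 7.57, 7.54 and 7.65 in the 1500 ppm females, a difference of -0.095 ± 0.046 with slide 2 included. The basal epithelial miR-205 gave -0.26 ± 0.12 and was apart on slide 2 (5.87 against 5.36, 5.54 and 5.32) and not on slide 3. Differences of miR-340-5p and miR-342-5p were -0.18 ± 0.087 and -0.14 ± 0.069, and those of miR-181a-1-3p and miR-1306-3p were 0.17 ± 0.065 and 0.30 ± 0.13.

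On slide 3 alone, with 3 females of each dose, most miRNAs were slightly lower at 1500 ppm and none passed the test. With limma, 0 of 283 miRNAs had an adjusted p under 0.05 (0%; smallest adjusted p 0.408), and 19 had an unadjusted p under 0.05 (6.71%), 2 higher and 17 lower. The median difference was -0.049, with 189 miRNAs lower and 94 higher. This direction turned under normexp, with a median of 0.055 and 12 higher against 1 lower at that p. It also depended on single arrays, with 12 higher and 10 lower without female 38, and 5 higher and 6 lower without female 33, where the median was -0.001. The doses did not overlap, and 1500 ppm was lower, for 29 miRNAs (10.2%), against 5 (1.77%) that were apart and higher.

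The smallest p on that slide belonged to miR-34a-3p, the passenger arm of the miR-34a hairpin. Its levels were 4.39, 4.41 and 4.44 at 1000 ppm and 4.16, 4.02 and 4.00 at 1500 ppm, a difference of -0.35 ± 0.060 (limma, adjusted p 0.408). The groups were apart, with the 1000 ppm females close to each other. On slide 2 the difference was 0.21, with 4.33 in male 13 and 4.67, 4.10 and 4.83 in the 1500 ppm males.

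Opposite signs on the other slide were common among the slide 3 miRNAs. The difference of miR-3068-3p was -0.23 on slide 3 and 0.046 on slide 2, that of miR-872-3p -0.21 and 0.068, that of miR-29c-5p -0.18 and 0.034, and that of miR-17-1-3p -0.25 and 0.025. The miR-188-5p and miR-34b-3p differences, 0.38 and -0.32 on slide 3, kept their sign on slide 2 at 0.35 and -0.38.

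On slide 2 the median difference was 0.067, with 204 miRNAs higher and 78 lower at 1500 ppm. This comparison had a single 1000 ppm array, which was assumed to vary as the 1500 ppm arrays did. No miRNA passed the adjusted test, and 16 had an unadjusted p under 0.05 (5.65%), 8 in each direction.

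The 2 slides share no array, and their differences were only weakly related across miRNAs. Over the 283 miRNAs Pearson's r was 0.039 and Spearman's rho 0.147, and 119 (42.0%) had the same sign. Over the 219 miRNAs above background on all 12 arrays, r was 0.103, rho 0.230, and 80 (36.5%) had the same sign. These are descriptions across miRNAs, which are not independent, and the opposite medians of the slides set part of the signs. The difference between slides, tested as an interaction in limma, passed for 0 miRNAs (smallest adjusted p 0.634), with 19 at an unadjusted p under 0.05 (6.71%), 15 of them more positive on slide 2.

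**Figure D3:**
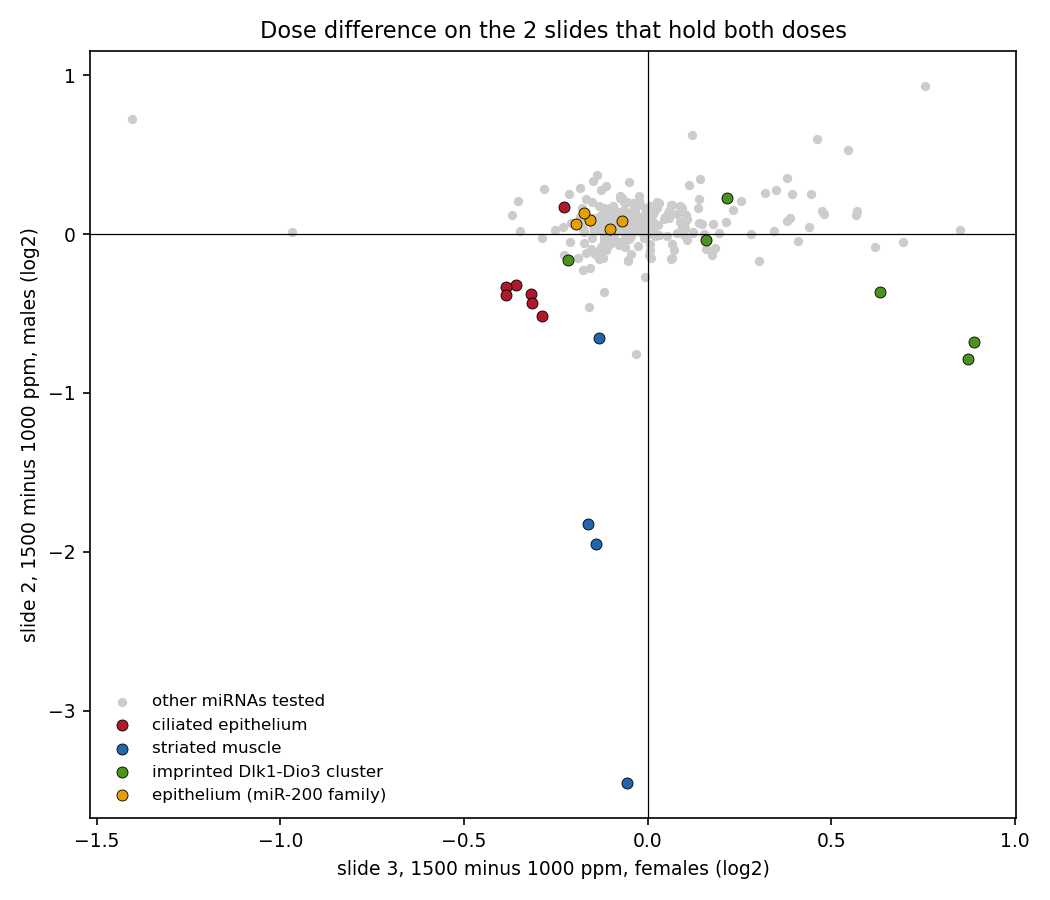
Difference between 1500 and 1000 ppm (log2) of the 283 miRNAs on slide 3 (females, 3 arrays of each dose) against slide 2 (males, 1 array against 3), with 4 miRNA lists in colour. Of the ciliated miRNAs 6 of 7 lie at lower left, the muscle miRNAs lie low on slide 2 (median -1.89) and near 0 on slide 3 (median -0.14), and the 5 miR-200 family miRNAs lie left of 0 and above it.

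The miR-200 family keeps epithelial cells in their epithelial state, and its members had the same sign on each slide. On slide 3 all 5 were lower at 1500 ppm (list median -0.16, all miRNAs -0.049), as were 189 of all 283 miRNAs. Of the 5, 3 had an unadjusted p under 0.05, against 6.71% of all miRNAs on that slide. All 5 were higher on slide 2 (median 0.086, all miRNAs 0.067), as were 204 of all 283 miRNAs. There the deposited series table put 4 of the 5 lower, and quantile normalization and a percentile taken over these 12 arrays each put 1 lower. The levels of miR-200b-3p on slide 3 were 9.84, 9.97 and 9.93 at 1000 ppm and 9.83, 9.73 and 9.70 at 1500 ppm, which did not overlap. On slide 2 they were 9.80 in male 13 and 9.81, 9.93 and 9.91 in the 1500 ppm males. Those of miR-200a-3p were likewise apart on slide 3, at 10.13, 10.26 and 10.23 against 10.03, 10.05 and 9.95. With slide as a block the differences were -0.075 ± 0.064 and -0.11 ± 0.060. The epithelial and sensory miR-183 cluster gave the same picture, with 3 of 3 members lower on slide 3 (median -0.15; 1 of 3 under normexp) and 0 of 3 on slide 2 (median 0.11). There those 2 scalings put 1 of the 3 lower and the series table all 3, with a median of -0.017. This turn between slides was not particular to epithelial lists. Of the let-7 miRNAs 7 of 8 were lower on slide 3 and 0 of 8 on slide 2. For the miR-30 list these counts were 5 of 5 and 0 of 5, and for the miR-26 with miR-101 list 4 of 4 and 0 of 4.

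The striated muscle miRNAs had the largest negative differences and the widest spread. Of the 7 listed, 4 passed the detection filter, and miR-206-3p, miR-208a-3p and miR-208b-3p did not. The 4 had negative differences (list median -0.73; -0.30 under normexp) and none passed the test. For miR-1-3p, which drives muscle differentiation, the levels at 1000 ppm were 5.31, 6.26, 7.57, 7.15, 3.80 and 8.40 in animals 11, 12, 13, 31, 32 and 33. At 1500 ppm they were 3.52, 5.34, 3.50, 7.45, 8.23 and 3.50 in animals 16, 17, 18, 36, 37 and 38. It was well above background on 6 of 6 arrays at the lower dose and 3 of 6 at the higher. High and low lungs occurred at both doses, and the difference was -1.19 ± 1.19, or -0.056 without male 13. The levels of miR-133b-3p were high in the same rats, and spanned 7.30 to 9.83 at 1000 ppm against 6.72 to 9.64 at 1500 ppm, with a difference of -0.74 ± 0.65.

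Male 13 was the only 1000 ppm array of slide 2, and without it the block difference of miR-133b-3p was -0.14. The heart and slow muscle miRNA miR-499-5p varied less, with a difference of -0.31 ± 0.16, spanning 4.58 to 5.38 at 1000 ppm against 4.06 to 4.91 at 1500 ppm. How much skeletal or heart muscle each piece of lung held was not tested.

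The imprinted Dlk1-Dio3 cluster, which encodes many miRNAs in one region expressed from the maternal chromosome, had 6 of 25 listed members above the filter. With slide as a block 5 of the 6 were higher at 1500 ppm (4 with the series table), with a median of 0.26. Of the 6, 5 were higher on slide 3 and 5 were lower on slide 2, and the signs opposed for miR-127-3p, miR-136-5p, miR-434-3p and miR-409a-3p. For miR-127-3p the slide 3 levels were 3.95, 4.55 and 5.20 at 1000 ppm and 5.04, 5.86 and 5.42 at 1500 ppm, a difference of 0.87 ± 0.37. On slide 2 male 13 had 5.05 and the 1500 ppm males 3.95, 3.96 and 4.88, a difference of -0.79 ± 0.50. The block difference was 0.32 ± 0.37. A single control rat, male 2 on slide 1, had 5.75, and the other 5 control rats had 3.51 to 4.48. How far single rats range without exposure was not tested.

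Of all miRNAs tested, miR-3588 had the most negative difference on slide 3. The 1000 ppm females had 7.61, 7.55 and 6.93 and the 1500 ppm females 5.70, 7.11 and 5.07, a difference of -1.40 ± 0.55. Female 37 overlapped the lower dose. On slide 2 the difference was 0.73 ± 0.27, with 3.99 in male 13 and 4.86, 4.90 and 4.38 at 1500 ppm, and the block difference was -0.69 ± 0.51. It belonged to a list chosen on these samples for low levels with slide or sex offsets, whose 5 members had a median of 0.031 (-0.088 with a lower floor and -0.33 with the series table). The list of 4 chosen on these samples for falling with dose (miR-3585-5p, miR-211-3p, miR-547-3p and miR-201-5p) had a median of -0.023 between these doses.

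Endothelial and leukocyte miRNAs differed little in value between the doses. The endothelial miR-126a-3p gave 0.027 ± 0.068, with levels from 13.38 to 13.77 over the 6 arrays at 1500 ppm and 13.51 to 13.62 at 1000 ppm. The 4 endothelial miRNAs had a median of -0.011, and the lowest was miR-222-3p, described above, at -0.095. All 4 were lower on slide 3 (median -0.071, all miRNAs -0.049). On slide 2 only 1 was lower (median 0.077, all miRNAs 0.067). The neutrophil miRNA miR-223-3p gave -0.041 ± 0.13, the lymphocyte miRNA miR-150-5p 0.011 ± 0.081, and the pan-leukocyte miR-142-3p 0.015 ± 0.081. The NF-kB feedback miRNA miR-146b-5p gave -0.18 ± 0.14. Over the 6 leukocyte and feedback miRNAs the median was -0.034, with 2 higher and 4 lower.

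Red blood cell miRNAs were lower in value, within their spread. The erythroid miR-451-5p gave -0.19 ± 0.20 and its neighbour miR-144-3p -0.20 ± 0.21. On slide 2 male 17 had 9.85 for miR-451-5p, below 10.60 in male 13 and 10.60 and 10.67 in the other 1500 ppm males. On slide 3 the females had 10.68, 10.77 and 11.21 against 11.05, 10.27 and 10.82. The 5 listed members tested had a median of -0.19.

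The smooth muscle and fibroblast list had 6 of 7 members below 0, with a median of -0.091, where 150 of all 283 miRNAs were lower. Its median was -0.12 on slide 3 (all miRNAs -0.049) and -0.020 on slide 2 (all miRNAs 0.067). The miR-145-5p levels on slide 3 were 9.74, 9.67 and 9.80 at 1000 ppm and 9.54, 9.62 and 9.62 at 1500 ppm, without overlap. Of all miRNAs, 29 (10.2%) were apart and lower on that slide. The miR-145-5p difference was -0.15 ± 0.057 on slide 3 and 0.018 ± 0.051 on slide 2, and -0.091 ± 0.050 with slide as a block. The seventh member, miR-145-3p, was at the floor on every array of slides 2 and 3.

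Injury miRNAs had small differences of both signs. The widely induced miR-21-5p gave 0.12 ± 0.081, with 11.42 to 11.78 at 1000 ppm and 11.62 to 11.84 at 1500 ppm. The epithelial miR-31a-5p gave 0.29 ± 0.15, and its 6 arrays at 1500 ppm lay between 6.31 and 6.50 while those at 1000 ppm ranged from 5.75 to 6.54. The activity-induced miR-212-3p gave -0.083 ± 0.067. Of 7 members tested 4 were higher and 3 lower, with a median of 0.065, and the series table gave 4 lower with a median of -0.02.

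The abundant miRNA families of the lung gave small differences with slide as a block. The 8 let-7 miRNAs, which restrain growth genes, ranged from -0.007 to 0.053 with a median of 0.021 (8 of 8 below 0 with the series table, whose median over all miRNAs was -0.16). They were led by let-7a-5p with group means of 13.03 and 13.15 and a difference of 0.036 ± 0.055. The miR-29 family, which targets collagen genes, had 5 of 5 members below 0 with a median of -0.038, and miR-29a-3p gave -0.006 ± 0.076. By slide, 5 of 5 were lower on slide 3 and 1 of 5 on slide 2. The brightest miRNA, miR-26a-5p, gave 0.009 ± 0.055. Medians of the miR-30, miR-17-92, miR-15 and miR-16, miR-181, miR-23 with miR-27 and miR-24, and miR-26 with miR-101 lists lay between -0.026 and 0.031. The miR-99, miR-100 and miR-125 list was the exception among these, with a median of -0.10 and miR-100-5p at -0.14 ± 0.073. Block medians near 0 could join opposite signs on the 2 slides. The miR-30 list had a median of -0.069 on slide 3 and 0.178 on slide 2. The miR-15 and miR-16 list had -0.082 and 0.141, let-7 had -0.019 and 0.117, and all miRNAs had -0.049 and 0.067. The list of brain, liver and pancreas miRNAs, of which 4 of 8 were tested, had a median of -0.088, with miR-375-3p, also made in neuroendocrine cells, at -0.23 ± 0.19.

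**Figure D4:**
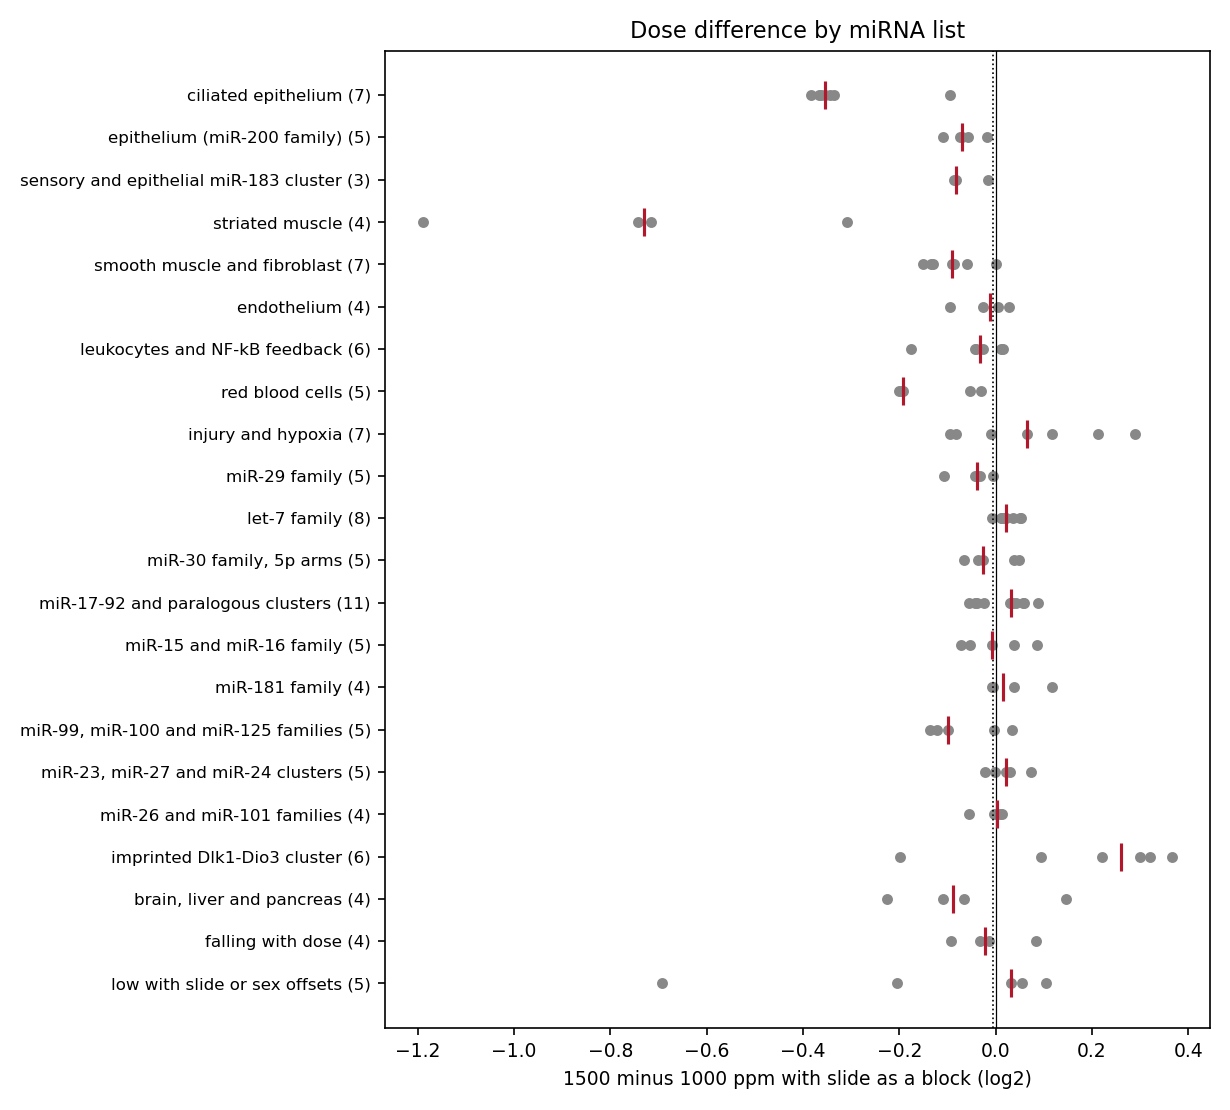
Difference between 1500 and 1000 ppm with slide as a block (log2) for the members (grey points) and the median (red line) of 22 miRNA lists, with the number of members tested in brackets; the dotted line is the median of all 283 miRNAs (-0.0066). The ciliated list (median -0.35) and the muscle list (median -0.73) lie farthest below 0, and the imprinted cluster (median 0.26) farthest above.

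Across all the miRNAs tested with a sequence, the difference was somewhat more positive where the share of G and C was higher. Spearman's rho between that share and the block difference was 0.252 over 249 miRNAs, 0.273 for the slide 3 difference and 0.031 for the slide 2 difference. The points share their arrays and are given as a description.

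The arrays of slide 1 had the highest signal. Before scaling, the 75th percentile of the probe intensity ran from 662 to 1219 scanner units over the 12 arrays, and 231 to 288 miRNAs per array were above background. Within slides the percentile differed by -83.0 units at 1500 ppm (exact permutation within slides, two-sided p = 0.15, adjusted over 3 tests 0.45, smallest p possible 0.0125). The number of miRNAs above background differed by -8.22 (exact permutation p = 0.5, adjusted 0.5), and the share of spots well above background by -1.15 percentage points (exact permutation p = 0.375, adjusted 0.5). Without female 33 the percentile differed by -114.7 units, with an exact permutation p of 0.025 before adjustment. The first principal component of the 12 arrays held 36.9% of the variance, of which slide accounted for 41.2%, sex for 38.8% and dose for 7.56%. The second held 19.0%, of which slide accounted for 95.3%, dose for 35.3% and sex for 14.0%. These shares overlap, since slide, sex and dose are not balanced.

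**Figure D5:**
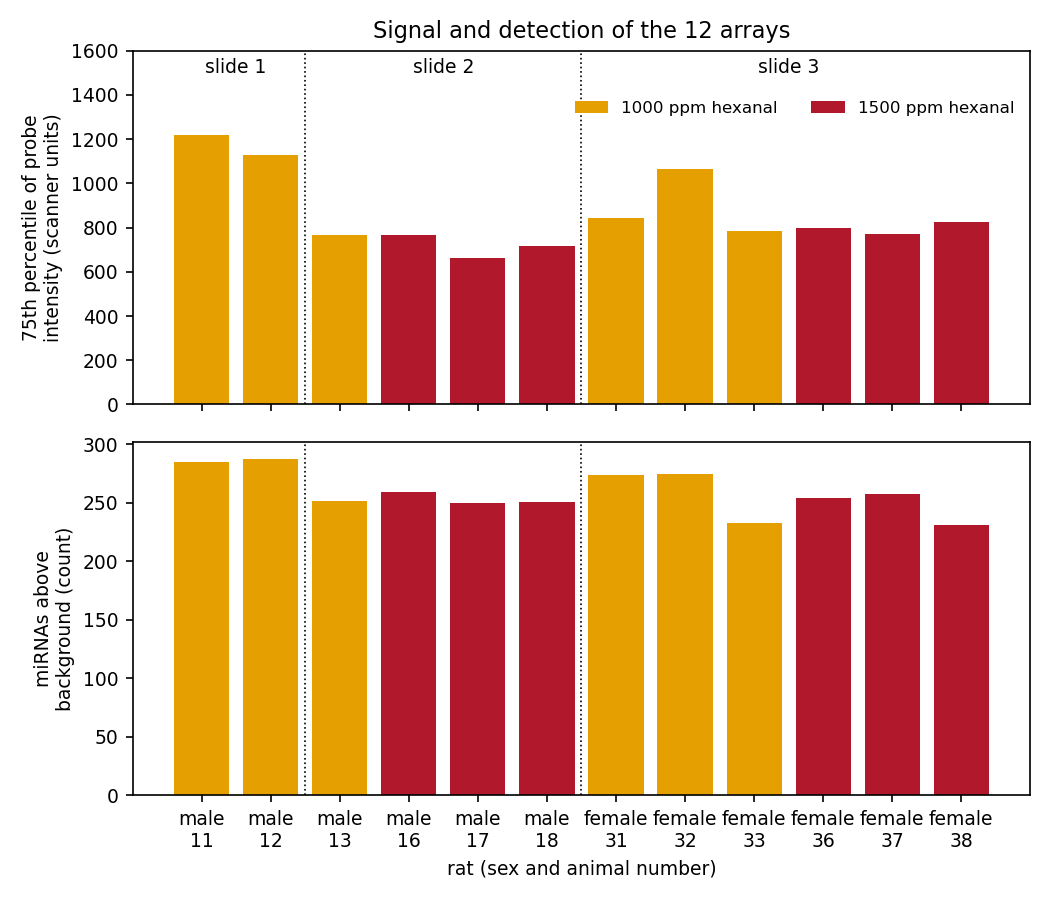
The 75th percentile of the probe intensity before scaling (upper panel, scanner units) and the number of miRNAs above background (lower panel) on each of the 12 arrays, ordered by slide and coloured by dose; each bar is 1 rat. The arrays of slide 1 have the highest percentile (1127 and 1219) and the most miRNAs (285 and 288).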

How the data were processed

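Total RNA from lung (100 ng per array) was labelled with Cy3 and hybridized to single-colour Agilent rat miRNA arrays. The scanner files deposited by the authors (1 per array, Feature Extraction 11.5.1.1) hold processed spot intensities, corrected for background and a gradient but not normalized between arrays. No procedure for these miRNA values is given in the methods of the study, and the genome build in the file headers is rn4, so coordinates are left out.

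Control spots and outlier flags were left out. Arrays were scaled to a common 75th percentile of 865, taken over 394 probes detected well above background in all 24 rats. Intensities under a floor of 11.3 (8.59% of kept spots) were set to it, and log2 was taken. Probes above background on at least 6 of 24 arrays were kept (555 probes, 283 miRNAs) and averaged per miRNA. Differences of miRNAs near the floor depend on where it is set.

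The 12 arrays were fitted in R 4.3.3 with limma 3.58.1 (lmFit, eBayes, two-sided) with dose and slide, leaving 8 residual degrees of freedom, and slide 3 (4 degrees), slide 2 (2 degrees) and the dose by slide interaction were fitted separately. Adjustment was by Benjamini-Hochberg over 283 miRNAs. Array values were compared by exact permutation. The number of arrays limits the precision. Named miRNAs were the 20 of smallest p, the 5 largest differences each way above background on all 12 arrays, the 10 of smallest p on slide 3, the 3 brightest and 2 of smallest p in each of 22 lists, the 10 brightest, and any of these with an outlying array. Members, lists and tests were chosen with earlier results of these data known. Other members of a list, and miRNAs called only by an alternative, were named after their values were seen. The calculations were tested on simulated data. The deposited series table of intensities, which holds the unnormalized total gene signal with low values set to 1, and a normexp correction (offset 50) of the median spot brightness were alternative signals. Other alternatives covered scaling, filter, floor, probe summary, eBayes options, slide terms, samples, the unpaired t-test of the methods, and each array left out.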

Additional observations from a re-analysis of the deposited data

Results flagged for a closer look

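Among 206 dose groups of named miRNAs (6 arrays each), 7 held an array whose gap to its nearest neighbour exceeded Dixon's 95% critical share of the group's range, where chance would give about 10.3. At 1500 ppm female 36 was the highest for miR-449c-5p (4.42, the others 3.55 ± 0.078, SD, n = 5; gap ratio 0.811) and the lowest for miR-26a-5p (13.76, the others 13.93 ± 0.026; gap ratio 0.692). Female 37 was the highest at 1500 ppm for miR-199a-3p (10.88, the others 10.55 ± 0.054; gap ratio 0.690) and for miR-500-3p (7.39, the others 6.88 ± 0.067; gap ratio 0.741). Male 18 was the highest at 1500 ppm for miR-30b-5p (12.00, the others 11.71 ± 0.040; gap ratio 0.700). At 1000 ppm male 11 was the lowest for miR-34a-5p (10.32, the others 10.76 ± 0.037; gap ratio 0.804) and female 33 the lowest for miR-182 (4.70, the others 5.03 ± 0.063; gap ratio 0.627).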

How the results depend on the processing

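With slide as a block, the count past the adjusted threshold stayed at 0 under every alternative except a floor at 0.25 of the main floor (1, miR-145-3p, -0.57, limma adjusted p 0.00696) and, added after seeing the data, the position number of an array within its slide as the block (1, miR-499-5p, -0.63, adjusted p 0.0487). miR-145-3p was at the floor on 10 of 12 arrays in the main setting. The count at an unadjusted p under 0.05, 13 in the main setting, was 20 under quantile normalization (7 higher, 13 lower), 43 with the series table (1 higher, 42 lower), 25 with normexp on the median brightness (22 higher, 3 lower), 28 with no slide term, 32 with sex in place of slide, 64 in males alone without slide and 23 with position as the block. With the percentile over all probes it was 14 (5 higher, 9 lower). The series table moved the median of all miRNAs to -0.16 (-0.22 on slide 3), and normexp to 0.062, so signs of single miRNAs are relative to these shifts. The ciliated miRNAs were lower in 7 of 7 under the series table (median -0.50) and in 6 of 7 under normexp (median -0.15). Leaving out an array gave 10 to 21 at an unadjusted p, with 21 without male 13, 20 without female 37 and 21 without female 38.

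On slide 3 alone, the lower floor gave 2 past the threshold (miR-145-3p and miR-201-5p, adjusted p 0.0454 each), and the methods' t-test at 1.5-fold gave 1 before adjustment. The 19 miRNAs at an unadjusted p became 12 with probes above background on 6 of the 12 arrays and 12 with the total gene signal, and 9 to 22 with an array left out (9 without female 32, 11 without 33, 12 without 37). Under normexp the 19 became 13, 12 of them higher, and 4 differences on slide 3 changed sign: miR-3068-3p to 0.015, miR-34a-3p to 0.026, miR-872-3p to 0.063 and miR-17-1-3p to 0.028. On slide 2 alone, leaving out an array gave 0 to 1 past the threshold (1 without male 17, miR-1-3p, -4.07, adjusted p 0.0286). The interaction count of 19 ranged from 11 to 29 (11 without male 18, 12 without female 33, 29 without female 38). The slide-adjusted percentile difference ranged from -114.7 units without female 33 (exact permutation p = 0.025) to -29.5 without female 32. No paired analysis was possible because the doses share no animal numbers. Signal over background limits miRNAs near the floor, whose differences depend on where it is set.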
